A study of Mus musculus with 8 samples.

Results

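The C1q/TNF-related proteins are a family of secreted paralogs of adiponectin, the most abundant adipocyte hormone. Their 9 listed mouse genes (C1qtnf1, C1qtnf2, C1qtnf3, C1qtnf4, C1qtnf5, C1qtnf6, C1qtnf7, C1qtnf9 and C1qtnf12) were chosen by symbol, through the GENCODE M21 annotation. Of the 24821 genes in the expression table, 8 were members of the family, and no value of C1qtnf5 was analysed here. All 8 passed the filter on low values (10 or more normalized counts in 4 or more of the 8 samples) and were tested together with the other genes, 17798 in all.

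RNA was measured in the epididymal white fat of male C57BL/6 mice, the pad beside the testis and epididymis. The 4 wild type (WT) samples and the 4 Ccdc92 knockout (KO) samples came from littermates of matched age, and both groups ate a high-fat diet for 14 weeks (fat gave 60%, protein 20% and carbohydrate 20% of the calories). Ccdc92 encodes a coiled-coil protein, and variants near the human gene are associated with body fat distribution and insulin resistance. The labels state neither the age in weeks nor the deleted segment of the gene. Nor do they state that the libraries stand for different mice, and the p-values therefore measure the spread among these samples alone, which may be technical.

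Family members carry a signal peptide, a collagen-like stretch built of repeats led by glycine, and a C-terminal globular domain shared with complement C1q and folded like tumour necrosis factor. Chains assemble into trimers through the globular domain and the collagen helix, and trimers of several members join into larger oligomers before secretion. Adiponectin acts on the receptors AdipoR1 and AdipoR2, raises the activity of the kinase AMPK and improves insulin sensitivity, and several paralogs made in fat have been studied as metabolic hormones of the same kind.

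The collagen-like stretch differed in length among the members and could be read from the coding sequences of the GENCODE M21 transcripts (GRCm38). It appeared as an unbroken run of codon triplets each led by GGN, the codon class of glycine. The longest run held 37 such triplets in C1qtnf9, 34 in C1qtnf2 and in C1qtnf7, 23 in C1qtnf3 and in C1qtnf5, 14 in C1qtnf1 and in C1qtnf6, 8 in C1qtnf12 and 22 in adiponectin (Adipoq). C1qtnf9 had 2 runs of at least 4 triplets, with 56 triplets in all, whereas C1qtnf4, a member known to consist of tandem globular domains without a collagen stretch, had no run of 4. The longest runs of the 3 most abundant members, of the member called lower in KO samples, and of adiponectin are shown here 5′ to 3′. Capitals mark the GGN codon that leads each triplet. The runs show how unequal the shared element is. The run of C1qtnf9 is shown for its first 33 triplets.
C1qtnf9: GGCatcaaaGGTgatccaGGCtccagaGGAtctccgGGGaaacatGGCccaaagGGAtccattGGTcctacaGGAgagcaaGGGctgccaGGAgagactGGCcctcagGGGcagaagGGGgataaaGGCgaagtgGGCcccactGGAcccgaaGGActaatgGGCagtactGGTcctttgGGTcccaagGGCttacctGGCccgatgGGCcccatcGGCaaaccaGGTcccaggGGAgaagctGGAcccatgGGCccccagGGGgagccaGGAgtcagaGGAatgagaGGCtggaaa
C1qtnf1: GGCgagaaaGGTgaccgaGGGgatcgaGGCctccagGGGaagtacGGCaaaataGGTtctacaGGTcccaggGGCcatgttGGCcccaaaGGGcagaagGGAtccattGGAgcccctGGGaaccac
C1qtnf12: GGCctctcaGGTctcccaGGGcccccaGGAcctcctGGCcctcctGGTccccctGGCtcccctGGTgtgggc
C1qtnf6: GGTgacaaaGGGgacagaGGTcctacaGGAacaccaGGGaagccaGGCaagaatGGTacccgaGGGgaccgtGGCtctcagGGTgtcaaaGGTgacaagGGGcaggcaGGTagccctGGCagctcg
Adipoq: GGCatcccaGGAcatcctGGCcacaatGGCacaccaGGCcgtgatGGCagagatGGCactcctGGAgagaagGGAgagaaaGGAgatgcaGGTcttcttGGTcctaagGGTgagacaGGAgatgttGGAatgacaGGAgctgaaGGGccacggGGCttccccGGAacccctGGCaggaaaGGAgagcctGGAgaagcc

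The libraries held 23681088 to 33817478 reads assigned to genes. For the targeted gene Ccdc92 the normalized count lay between 54.1 and 105.8 in WT libraries and between 4.9 and 9.7 in KO libraries. Adipocyte markers were present in every library and passed the test as higher in KO in 16 of 18 genes, with summed normalized counts between 451361 and 834743 in WT libraries and between 1691741 and 2115190 in KO libraries. Macrophage markers were lower in 12 of 12 (184475 to 485490 in WT, 40006 to 69052 in KO), and fibroblast and progenitor markers were lower in 6 of 14 and higher in 1. Endothelial markers were higher in 5 of 8, mural cell markers in 2 of 8, mesothelial markers in 0 of 8 (also 0 at an unadjusted limma p under 0.05) and skeletal muscle markers in 1 of 3 tested. Of all genes tested 20.2% were higher and 21.5% lower. The count of higher mural markers shifted in at least 11 of 18 alternative analyses, and that of endothelial markers in at least 2. Genes of the epididymis, the duct next to this depot, were lower in 5 of 7 tested, with sums between 52340 and 119648 (WT) and between 10 and 1164 (KO). In such bulk tissue, fewer cells of a type and less RNA per cell cannot be told apart.

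Of the 8 measured members, 4 were higher in KO fat, 1 was lower and 3 did not pass, by limma on log2(normalized count + 1) at a Benjamini-Hochberg adjusted p under 0.05. C1qtnf12, C1qtnf9, C1qtnf1 and C1qtnf2 were higher, by 1.5-fold to 2.27-fold, and C1qtnf6 was 1.95-fold lower. Among all genes tested 41.7% passed in either direction, 20.2% as higher and 21.5% as lower, so a call is common in these data. The median log2 fold change was 0.27 over the 8 members and -0.01 over all genes tested. DESeq2 also called 5 members (4 higher, 1 lower; 47.2% of all genes it tested called) and edgeR 4, all higher (41.9% of all genes called). The 4 higher members were also those whose KO values all lay above all WT values, as held for 21% of all genes tested, and no member had all KO values below all WT values (21.1% of all genes, 42.1% in either direction).

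**Figure D1:**
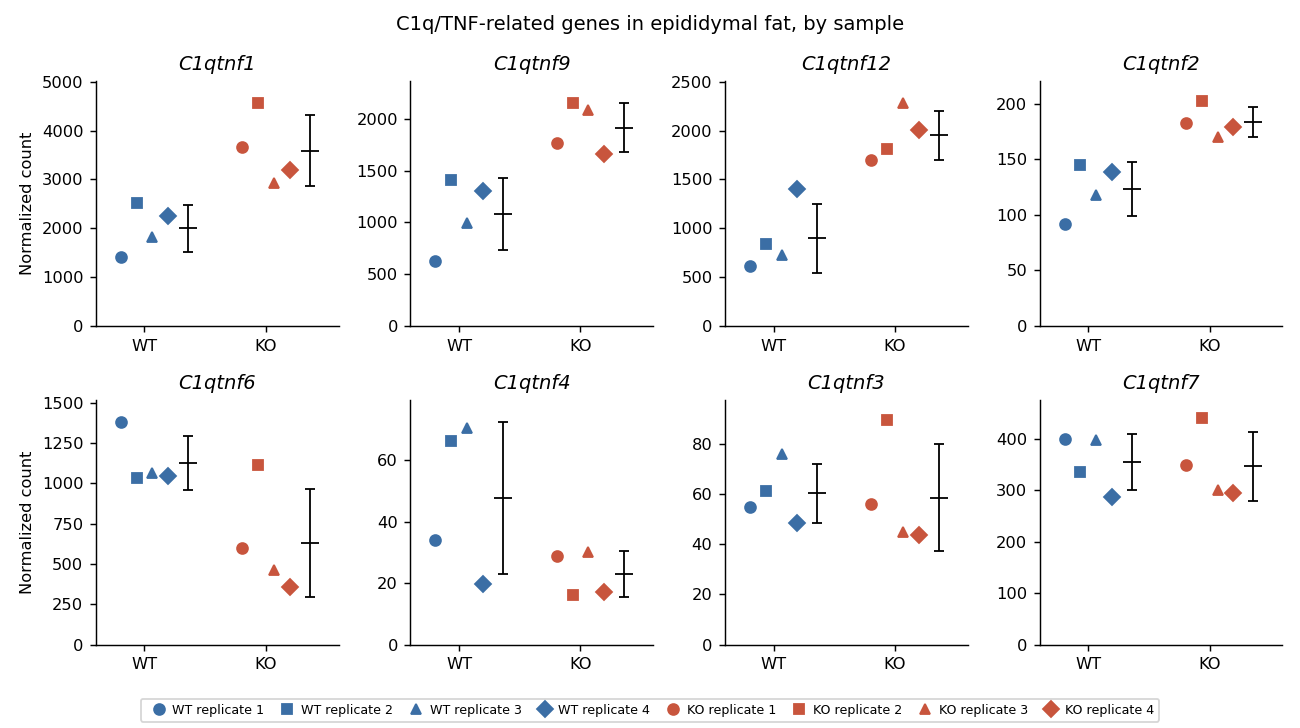
Normalized count (vertical axes, from 0) of each measured family member in the 4 WT and 4 KO samples, 1 marker shape per replicate number, with the group mean and SD as black bars. In the panels of C1qtnf1, C1qtnf9, C1qtnf12 and C1qtnf2 every KO point lies above every WT point, and in the other 4 panels the groups overlap.

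C1qtnf12 (chromosome 4, 155962318 to 155966629, plus strand, GRCm38) encodes adipolin, an insulin-sensitizing hormone of fat. It had normalized counts of 611.9, 840.5, 730.6 and 1406.4 in WT replicates 1 to 4 and of 1701.9, 1814.2, 2278.8 and 2004.7 in KO replicates 1 to 4. WT replicate 4 stood above the other WT samples and still below every KO sample. Its log2 fold change of 1.18 (SE 0.24; adjusted p = 0.00515, limma) was the largest among the members, and the 95% interval ran from 1.56-fold to 3.30-fold.

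C1qtnf9 (chromosome 14, 60768134 to 60780869, plus strand) is regarded as the closest paralog of adiponectin, can form mixed trimers with it, and is made mainly in fat. Its normalized counts were 631.1, 1408.9, 992.4 and 1302.4 in WT and 1768.5, 2152.6, 2082.1 and 1659.0 in KO. The lowest KO sample, replicate 4, was above the highest WT sample, replicate 2, and the WT samples spread more widely (32.3% of their mean as SD) than the KO samples (12.5%). The log2 fold change was 0.88 (SE 0.24; adjusted p = 0.0186, limma).

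C1qtnf1 (chromosome 11, 118428203 to 118449963, plus strand), whose product has been studied in platelet aggregation, aldosterone release and glucose handling, had the highest normalized counts of the family. They were 1422.8, 2516.7, 1817.6 and 2252.8 in WT and 3662.3, 4573.5, 2928.0 and 3199.2 in KO. The groups did not overlap, and the log2 fold change was 0.85 (SE 0.20; adjusted p = 0.0101, limma). An antisense gene, Gm11747, covers 20.5% of the exon bases of C1qtnf1 and had normalized counts of 1.8 to 5.6 (WT) and 4.3 to 7.3 (KO). The strand setting of the read counter is not given, and the part of antisense reads in the C1qtnf1 values was not tested.

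C1qtnf2 (chromosome 11, 43474276 to 43491525, plus strand) encodes a member whose product is known to stimulate fatty acid oxidation in muscle cells, and it was expressed at a low level. Its normalized counts were 91.7, 145.2, 117.9 and 138.6 in WT and 182.7, 202.5, 169.8 and 179.5 in KO. The KO samples lay close together (SD 7.48% of the mean) above all WT samples. The log2 fold change of 0.59 (SE 0.17; adjusted p = 0.0206, limma) was the smallest of the 4, and it missed the threshold without WT replicate 3 (adjusted p = 0.0548) or without KO replicate 2 (0.0513). Beside all of these rises the adipocyte markers rose too, in 16 of 18 genes with a median log2 fold change of 1.70 and with no marker at 0 in any library, and the part of adipocyte content in the rises was not tested.

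**Figure D2:**
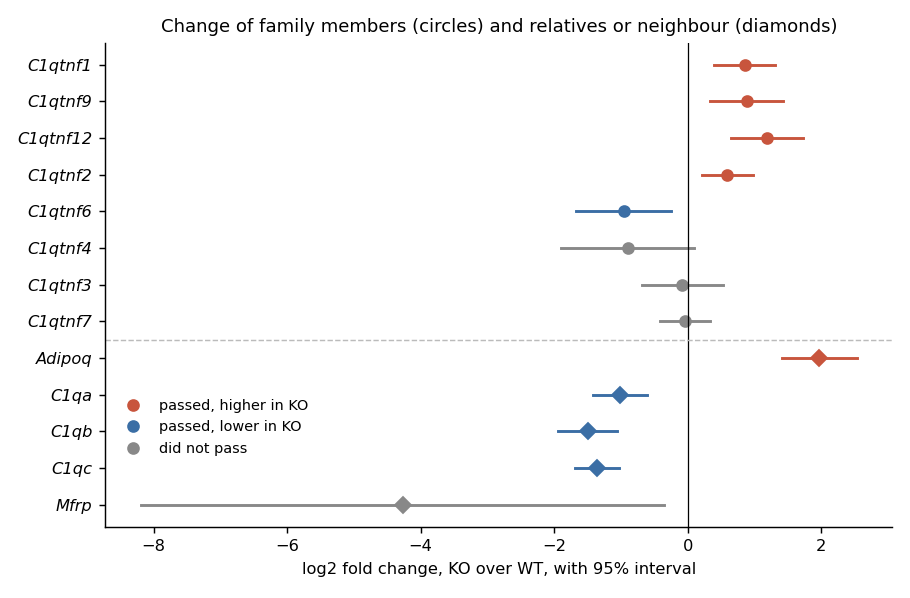
Log2 fold change of KO over WT (horizontal axis) with its 95% interval for the 8 measured members (circles) and for Adipoq, C1qa, C1qb, C1qc and Mfrp (diamonds), coloured by the limma call. The 4 higher members lie between 0.59 and 1.18, Adipoq lies at 1.97, and the interval of Mfrp is the widest.

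C1qtnf6 (chromosome 15, 78523346 to 78531416, minus strand), a member made by stromal as well as fat cells, was the only one called lower. Its normalized counts were 1380.6, 1030.9, 1062.9 and 1043.1 in WT and 597.5, 1113.5, 461.1 and 357.8 in KO. KO replicate 2 lay within the WT range and the other KO samples lay below it, so the groups overlapped through a single library. The log2 fold change was -0.96 (SE 0.31; adjusted p = 0.0374, limma).

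The call of C1qtnf6 held in 8 of 18 alternatives. It was lost when limma was fitted without WT replicate 1 (adjusted p = 0.0937), WT replicate 2 (0.0588), WT replicate 3 (0.0705), WT replicate 4 (0.0593), KO replicate 1 (0.0679), KO replicate 3 (0.094) or KO replicate 4 (0.0805), and in edgeR's test (adjusted p = 0.0685), while without KO replicate 2 the log2 fold change was -1.28 (limma adjusted p = 0.00231). KO replicate 2 also held the highest KO value of 6 of the 8 members (C1qtnf1, C1qtnf2, C1qtnf3, C1qtnf6, C1qtnf7 and C1qtnf9). In that library the fibroblast and progenitor markers summed to 205451, within the WT range of 194038 to 293380. The other KO samples held 108227 to 129641. Single markers were split. Col15a1, which did not pass, stood at 37558.1, above every WT sample (20087.5 to 22941.3). The 6 markers called lower each lay below every WT sample, with Col3a1 closest (92972.8 against a lowest WT value of 94361.3). The macrophage markers summed to 69052 in KO replicate 2, against 40006 to 57117 in the other KO samples. None of these 14 and 12 markers was at 0 in any library, and their part in the C1qtnf6 values was not tested.

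The other 3 members did not pass. C1qtnf7 (chromosome 5, 43515538 to 43618803, plus strand), a member linked to glucose and lipid metabolism, had normalized counts of 399.0, 335.6, 397.3 and 287.5 in WT and 348.2, 440.9, 299.9 and 294.7 in KO. KO replicate 2 was the highest and WT replicate 4 the lowest of the 8 samples, with the groups interleaved between them. The 95% interval of the fold ran from 0.751 to 1.26 (limma adjusted p = 0.85).

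C1qtnf3 (chromosome 15, 10952332 to 10980150, plus strand), known as cartducin or cartonectin, had normalized counts of 55.0, 61.5, 76.1 and 48.7 in WT and 56.3, 89.7, 45.1 and 43.7 in KO. Its fold interval of 0.619 to 1.44 was wider, with only 36 to 105 reads per library behind the values. KO replicate 2 was the highest of all 8 samples, and the log2 fold change was -0.08 (SE 0.27; adjusted p = 0.828, limma).

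C1qtnf4 (chromosome 2, 90885860 to 90890525, plus strand), the member without a collagen stretch, had normalized counts of 33.9, 66.4, 70.6 and 19.7 in WT and 28.7, 16.2, 30.1 and 17.0 in KO. WT replicate 4 lay among the KO samples, and its 21 reads had a 95% exact Poisson interval of 13 to 32.1, which covers counting error only. The log2 fold change was -0.90 (SE 0.44; adjusted p = 0.13, limma), with a fold interval from 0.268 to 1.07. Without WT replicate 4 it was -1.26 and passed (limma adjusted p = 0.0293). Epididymis genes were lower in 5 of 7 tested. WT replicate 4 was the lowest WT library for Adam7, Crisp1, Spink8 and Lcn5 and the highest for Akr1b7, Defb42 and Serpina1f. The part of the epididymis genes in the C1qtnf4 values was not tested.

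C1qtnf5 shares its locus with Mfrp, which encodes a membrane frizzled-related protein of the eye, and both can be read from 1 long transcript. In the annotation C1qtnf5 spans chromosome 9, 44107245 to 44109187, and Mfrp spans 44101729 to 44109187, both on the plus strand. All 1589 exon bases of C1qtnf5, 100%, fall inside exons of Mfrp, and 40.8% are also covered by Gm20444 on the other strand, so reads of C1qtnf5 cannot be told apart from reads of Mfrp by position. RefSeq's promoter table for GRCm38.p6 likewise gives both genes the same window, chr9:44101520-44101819.

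The row of Mfrp had normalized counts of 522.0, 1318.5, 978.4 and 4.7 in WT and 37.9, 31.6, 5.4 and 2.4 in KO. Whether this row holds reads of C1qtnf5 is unknown, because the read counter is not given. WT replicates 1 to 3 stood far above all other samples. WT replicate 4, with 5 reads, lay among the KO samples, which had 33, 37, 5 and 2 reads. The log2 fold change of -4.27 (SE 1.72) did not pass (limma adjusted p = 0.0765), while edgeR's test on recovered reads (adjusted p = 0.016) and DESeq2 (adjusted p = 0.000395) called it lower. Without WT replicate 4 the log2 fold change was -6.09 (limma adjusted p = 0.00234). The same 3 WT libraries stood apart in Adam7, a gene of the epididymis, at 7804.6, 19828.7, 17380.5 and 0.9 in WT and 41.4, 272.6, 387.0 and 0 in KO. The epididymis list as a whole did not share this pattern. WT replicate 4 was the lowest WT library for Adam7, Crisp1, Spink8 and Lcn5. It was the highest for Akr1b7 (80635.9, against 188.1 to 211.6 in WT replicates 1 to 3), Defb42 and Serpina1f. The summed epididymis markers were high in all 4 WT libraries (52340, 110798, 98892 and 119648) and between 10 and 1164 in KO. In WT replicate 4 most of that sum was Akr1b7. The mural cell markers summed to 56620 in that library and to between 12854 and 24135 in WT replicates 1 to 3. Which tissue beside fat WT replicate 4 held was not tested. Lcn8 was at 0 in a WT library, and Crisp1, Adam7, Lcn5, Akr1b7 and Serpina1f in a KO library, and the part of the epididymis genes in the Mfrp values was not tested.

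**Figure D3:**
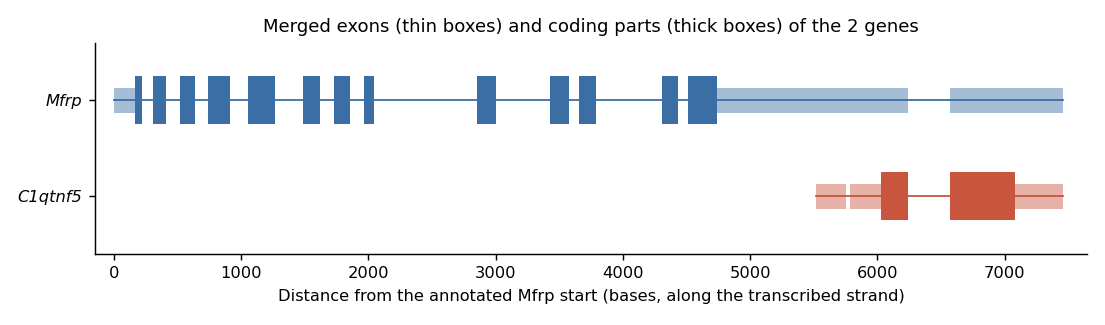
Merged exons (thin boxes) and coding parts (thick boxes) of Mfrp and C1qtnf5, drawn to scale against the distance from the annotated Mfrp start in bases. Every exon block of C1qtnf5 lies inside an exon block of Mfrp, and the coding parts of the 2 genes are apart.

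Levels of different members were compared per kilobase of merged exons. C1qtnf12, C1qtnf1 and C1qtnf9 led in WT with 656.9 ± 257.7, 639.6 ± 154.0 and 569.5 ± 183.7 normalized counts per kilobase (SD, n = 4), and these means differed by less than the spread between samples. C1qtnf6 followed with 418.0 ± 62.2, closer to C1qtnf9 than the spread of the latter, then C1qtnf2 with 94.3 ± 18.4, C1qtnf7 with 85.3 ± 12.9, C1qtnf4 with 36.9 ± 19.2 and C1qtnf3 with 23.6 ± 4.6. C1qtnf2 and C1qtnf7 lay within their spread of each other. C1qtnf4 and C1qtnf3 differed by less than the spread of C1qtnf4 but by more than that of C1qtnf3.

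In KO the order of group means was the same down to C1qtnf7, with 1427 ± 184.8 for C1qtnf12, 1147 ± 230.6 for C1qtnf1 and 1007 ± 125.6 for C1qtnf9 normalized counts per kilobase (SD, n = 4). C1qtnf1 and C1qtnf9 differed by less than the spread of C1qtnf1 but by more than that of C1qtnf9. C1qtnf6 stood at 234.1 ± 124.1, C1qtnf2 within that spread at 140.4 ± 10.5, and C1qtnf7 at 83.1 ± 16.3, and the order of the last pair changed, with C1qtnf3 at 23.0 ± 8.38 and C1qtnf4 at 17.8 ± 5.75. The summed level of the 8 members ran from 1959 to 3029 in the WT samples and from 3732 to 4641 in the KO samples. C1qtnf6 made up 16.6% of that sum in the WT means and 5.74% in the KO means, and C1qtnf12 26% and 35.0%. Adiponectin, at 15198 ± 4785 in WT and 57512 ± 8535 in KO on the same scale, was far above every paralog.

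**Figure D4:**
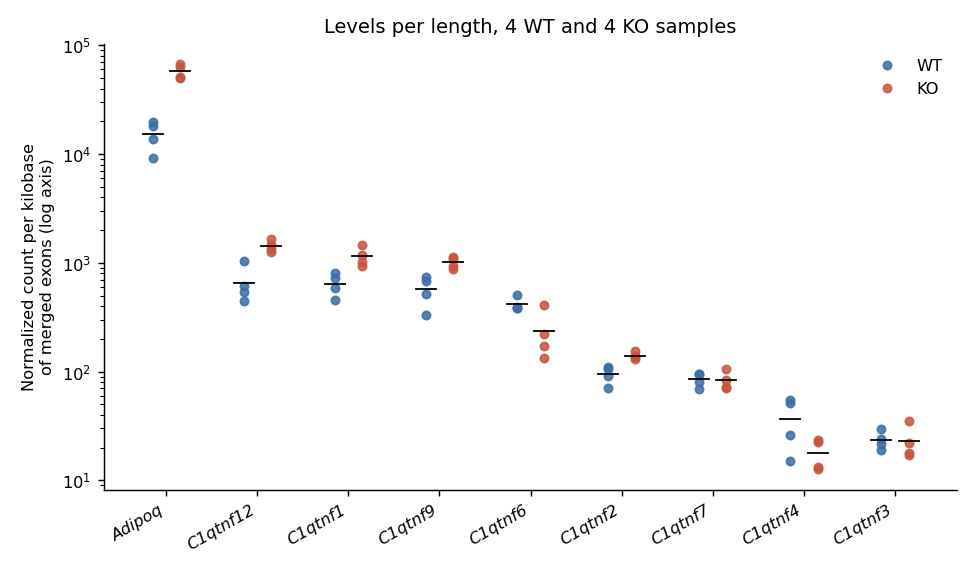
Normalized count per kilobase of merged exons on a log axis for Adipoq and the 8 measured members, with 1 point per sample and a line at each group mean. Adipoq lies above all members in both groups, and C1qtnf12, C1qtnf1 and C1qtnf9 lie together below it.

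Adiponectin itself (Adipoq, chromosome 16, 23146536 to 23158028, plus strand) had normalized counts of 12578.3, 27239.4, 18998.6 and 25139.3 in WT and 68453.3, 70490.6, 92420.6 and 86333.3 in KO, a fold of 3.92 (95% interval 2.66 to 5.77). Set against it sample by sample, the ratio of every one of the 8 members to Adipoq was lower in all KO samples than in all WT samples, as held for 90.4% of the 17797 genes tested besides Adipoq, so this count says nothing particular about the family. C1qtnf9 gave 5.02, 5.17, 5.22 and 5.18 normalized counts per 100 of Adipoq in WT replicates 1 to 4, and 2.58, 3.05, 2.25 and 1.92 in KO. Its WT ratios were nearly constant, with an SD of 1.75% of their mean, although C1qtnf9 and Adipoq each varied by over 30% among the same samples (32.3% and 31.5%). Of the 17797 genes, 3 had WT ratios with a spread that small, C1qtnf9 included. These are descriptions of 4 samples a group with no test, and the 688 reads of C1qtnf9 in WT replicate 1 carry a 95% exact Poisson interval of 637.5 to 741.4, wider than the spread of the ratios.

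C1qtnf12 per 100 of Adipoq lay between 3.09 and 5.59 in WT samples and between 2.32 and 2.57 in KO, where its SD was 4.24% of the mean. The range of C1qtnf1 was 8.96 to 11.3 (WT) and 3.17 to 6.49 (KO). That of C1qtnf6 was 3.78 to 11.0 (WT) and 0.414 to 1.58 (KO), with WT replicate 1 and KO replicate 2 highest in their groups. The fitted folds of the 4 higher members, 1.5 to 2.27, were below the 3.92 of Adipoq. The intervals of C1qtnf12 (1.56 to 3.30) and C1qtnf9 (1.26 to 2.68) overlapped that of Adipoq, those of C1qtnf1 (1.32 to 2.48) and C1qtnf2 (1.16 to 1.95) did not, and the difference between genes was not tested.

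**Figure D5:**
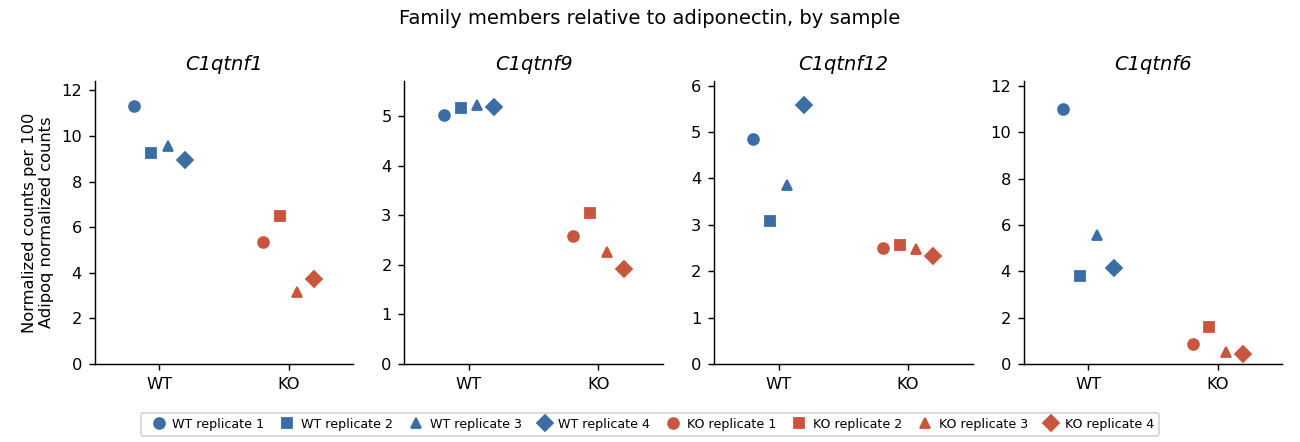
Normalized counts of C1qtnf1, C1qtnf9, C1qtnf12 and C1qtnf6 per 100 normalized counts of Adipoq (vertical axes, from 0) in each WT and KO sample. In every panel the KO points lie below the WT points, and the 4 WT points of C1qtnf9 lie between 5.02 and 5.22.

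Other genes with the C1q-type domain went both ways. Of 22 listed, 17 had a row, 11 were tested, 3 were higher, 5 were lower and 3 did not pass, where 20.2% of all genes were higher and 21.5% lower. The median log2 fold change was -0.45 against -0.01 for all genes. The 3 higher genes were Mmrn2, Caprin2 and Adipoq, which is also counted among the adipocyte markers. The chains of complement C1q, which are made mainly by macrophages, were all lower. C1qb had normalized counts of 24391.5, 17400.5, 21000.0 and 21803.2 in WT and 9993.9, 8297.6, 6640.7 and 5464.7 in KO, a log2 fold change of -1.5 (SE 0.19; adjusted p = 0.00085, limma). C1qa and C1qc changed by -1.02 and -1.36, and for all 3 genes the groups did not overlap. Macrophage markers fell beside them in 12 of 12 genes, and their part was not tested.

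The domain-bearing genes of the matrix and vessel wall also divided. Col8a1, a chain of a short-chain collagen, and Emilin1, an elastic fibre protein, were lower with log2 fold changes of -1.32 (limma adjusted p = 0.0169) and -0.96 (limma adjusted p = 0.018). Mmrn2, an endothelial matrix protein, and Caprin2, an intracellular protein with a C1q-type domain, were higher by 0.90 (limma adjusted p = 0.00291) and 0.89 (limma adjusted p = 0.00313). The endothelial markers beside Mmrn2 were higher in 5 of 8, and their part was not tested.

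Of 8 receptors and adaptors linked to adiponectin-type hormones, 7 were tested, 2 were higher, 2 were lower and 3 did not pass, where 41.7% of all genes passed. Adipor2, a receptor of adiponectin, had normalized counts of 7161.5, 11481.4, 8733.4 and 11681.5 in WT and 21419.7, 21774.7, 24915.0 and 28280.1 in KO, and rose by 1.32 (SE 0.18; adjusted p = 0.000988, limma) without overlap. Adipor1, the other receptor, did not pass, with a fold interval of 0.872 to 1.41. Cdh13, the T-cadherin that binds large adiponectin oligomers on vessels, had a log2 fold change of 0.95 (limma adjusted p = 0.0182). The endocytic receptor Lrp1 (-1.21, limma adjusted p = 0.00212) and calreticulin, Calr (-0.70, limma adjusted p = 0.00716), were lower, and the adaptor Appl1 did not pass, with a fold interval of 0.879 to 1.13. Adipocyte markers (16 of 18) and endothelial markers (5 of 8) were higher beside Adipor2 and Cdh13, macrophage markers (12 of 12) and fibroblast and progenitor markers (6 of 14) were lower beside Lrp1 and Calr, and their part was not tested.

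A list of 9 genes held the subunits of AMPK, the energy-sensing kinase downstream of these hormones, and the kinase genes Stk11 and Camkk2. Of these 9 genes, 5 were higher and 1 was lower, where 20.2% of all genes were higher and 21.5% lower. The median log2 fold change of the 9 genes was 0.41. The adipocyte markers beside them were higher in 16 of 18, and their part was not tested. The regulatory subunit Prkag2 rose by 0.73 (limma adjusted p = 0.00105), Prkab2 by 0.46 (limma adjusted p = 0.00289) and the catalytic subunit Prkaa1 by 0.41 (limma adjusted p = 0.00732). Prkag3 rose most, by 1.76 (limma adjusted p = 0.00784), with overlapping groups, and Stk11 rose by 0.39 (limma adjusted p = 0.0209). The lower gene was Prkab1 (-0.22, limma adjusted p = 0.0425), whose groups overlapped, and the count of lower AMPK genes was 0 in 13 of 18 alternatives.

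Of 13 genes for folding and processing collagen-like secreted proteins, 2 were higher, 6 were lower and 5 did not pass, where 20.2% of all genes were higher and 21.5% lower. Gstk1, which encodes the DsbA-like factor that aids adiponectin assembly, had normalized counts of 290.8, 416.4, 437.2 and 432.6 in WT and 823.9, 736.6, 981.4 and 865.9 in KO, a log2 fold change of 1.12 (SE 0.15; adjusted p = 0.000957, limma). Colgalt1, which glycosylates collagen-like stretches, fell by 0.98 (limma adjusted p = 0.00168) and the oxidase gene Ero1b by 1.12 (limma adjusted p = 0.0017). Furin, the protease known to cleave adipolin, fell by 0.37 (limma adjusted p = 0.0036), and its groups did not overlap. Beside these genes adipocyte markers (16 of 18) were higher, and fibroblast and progenitor markers (6 of 14) and macrophage markers (12 of 12) were lower. The part of these markers was not tested.

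RefSeq's promoter table (GRCm38.p6) held 6 of the 9 members, not C1qtnf1, C1qtnf4 and C1qtnf12. The 250 bases before RefSeq's start, which need not be the GENCODE start given for each gene, are shown for the higher members C1qtnf9 and C1qtnf2 and for Adipoq, as genes called higher in KO, a call that 20.2% of all genes share. Capitals mark matches on either strand, and no match overlapped another. The motifs searched were the TATA box spelled TATAAA, the box spelled CCAAT, the E-box with letters CACGTG, the GC box with letters GGGCGG and the palindrome of C/EBP factors, TTGCGCAA. The last was the direct repeat read by PPAR with RXR, in which the word AGGTCA recurs after any 1 base.
C1qtnf9: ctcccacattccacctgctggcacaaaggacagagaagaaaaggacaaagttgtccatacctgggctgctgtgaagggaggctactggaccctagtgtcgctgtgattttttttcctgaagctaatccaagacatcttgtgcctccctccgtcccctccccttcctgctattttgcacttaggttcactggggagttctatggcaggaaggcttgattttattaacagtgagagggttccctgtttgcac
C1qtnf2: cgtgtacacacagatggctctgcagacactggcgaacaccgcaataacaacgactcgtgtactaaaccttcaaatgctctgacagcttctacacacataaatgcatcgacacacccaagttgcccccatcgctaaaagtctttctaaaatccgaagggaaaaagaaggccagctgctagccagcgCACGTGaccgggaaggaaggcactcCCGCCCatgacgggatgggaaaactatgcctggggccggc
Adipoq: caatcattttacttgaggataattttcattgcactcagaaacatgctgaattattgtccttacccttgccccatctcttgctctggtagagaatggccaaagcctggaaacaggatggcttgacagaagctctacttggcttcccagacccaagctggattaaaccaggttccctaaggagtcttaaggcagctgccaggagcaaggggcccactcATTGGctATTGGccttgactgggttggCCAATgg

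These windows lie on the plus strand at chr14:60767884-60768133, chr11:43474056-43474305 and chr16:23146286-23146535. The Adipoq window held CCAAT 3 times, a motif found in 33.8% of the 32851 promoter windows of that length. The C1qtnf2 window held CACGTG, found in 6.02% of windows, and GGGCGG on the minus strand, found in 32.7%. The C1qtnf9 window held none of the 6 motifs, so the 3 windows shared no motif of this set. TTGCGCAA and the spaced AGGTCA repeat were in none of the 3 and in 0.164% and 0.0335% of all windows.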

How the data were processed

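Gene expression in 4 WT and 4 KO samples was taken from 1 table of normalized counts, a signal per gene that the authors deposited. STAR 2.7.7, DESeq2 and GRCm38.p6 were used, per the submitters' processing notes, which leave out what each did. Not given in the sources used here are the read counter, its strand setting, the annotation and any filter. Within a library 100.0% of values above 0 were whole multiples of 1 step (tolerance 0.01 of a read), so whole reads were recovered, and the smallest sum over the libraries was 10. Of 24821 identifiers, 24558 matched GENCODE M21 with their version, 24802 without it, and 19 did not. The symbols Ero1a and Ero1b were matched through RefSeq's older names.

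Samples were grouped by their labels. limma 3.58.1 in R 4.3.3 was fitted to log2(normalized count + 1) of genes with at least 10 in at least 4 samples, with group as the one factor, and with trended, robust moderation. Fold changes on this scale understate those of low genes. edgeR 4.0.16 and DESeq2 1.42.0 on recovered reads, another pseudocount (0.1 or 10), no filter, TMM scaling, quantile normalization, plain moderation, a replicate block and leaving out libraries were alternatives. The fit was also run on simulated counts, in which far fewer genes changed than were called here. No result given here rests on that run. Libraries of 1 group differed beyond sampling noise in every pair. The members and gene lists were chosen with earlier results of these data known. All members were named with their values, with Adipoq, C1qa, C1qb, C1qc, Mfrp and Ccdc92. Up to 3 genes with the smallest p of each hormone-related list were also named. Further genes of these lists named after their values were seen were Adipor1, Appl1, Cdh13, Col8a1, Emilin1, Mmrn2, Caprin2, Prkab1, Prkag3, Stk11, Camkk2 and Furin. So were the markers Adam7, Akr1b7, Defb42, Serpina1f, Crisp1, Spink8, Lcn5, Col15a1 and Col3a1. Lists were described by counts and medians, with no set test.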

Additional observations from a re-analysis of the deposited data

Results flagged for a closer look

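C1qtnf6 in WT replicate 1, at 1380.6 normalized counts, lay far from the other WT samples, which ran from 1030.9 to 1062.9. It was 1 of 28 groups of 4 samples examined in this way, and chance alone marks about 1 in 20. Without that library the log2 fold change of C1qtnf6 was -0.86 (limma adjusted p = 0.0937).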

How the results depend on the processing

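C1qtnf1, C1qtnf9 and C1qtnf12 stayed higher and past the threshold in all 18 alternatives, with log2 fold changes of 0.70 to 1.01, 0.64 to 1.03 and 1.02 to 1.42, and C1qtnf2 in 16 of 18. The count of lower members, 1 in the main analysis, was 0 in limma without trend or robust moderation and 0 in edgeR's test, and ran from 0 to 1 when 1 library was left out. C1qtnf6 had -0.96 (limma adjusted p = 0.051) in plain limma, -0.81 in edgeR and -0.89 (limma adjusted p = 0.13) without WT replicate 4 and KO replicate 3 together, an alternative chosen after seeing the data. The 1 lower member without WT replicate 4, with or without KO replicate 3, was C1qtnf4, which had -1.40 without both (limma adjusted p = 0.0361). Members wholly lower in KO numbered 0, and 0 to 1 when 1 library was left out (C1qtnf4 without WT replicate 4, C1qtnf6 without KO replicate 2). Signs turned only for 2 members that never passed. C1qtnf3 had 0.22 and C1qtnf7 had 0.06 under quantile normalization, which moved the median of all genes by 0.104 and the higher share of calls from 48.4% to 58.5%. Leaving out 1 library gave -0.30 to 0.04 for C1qtnf3 and -0.17 to 0.03 for C1qtnf7, including 0.03 without WT replicate 3 and 0.02 without KO replicate 3 for C1qtnf3, and 0.02 without WT replicate 1, WT replicate 3 or KO replicate 3 for C1qtnf7. With the longest transcript as length, C1qtnf1 had 1418 and C1qtnf2 151.6 per kilobase in KO. With that length the WT mean of C1qtnf1 stood above that of C1qtnf12, so the leading member in WT depended on the length chosen. Between WT and KO libraries of the same replicate number, correlations of deviations were -0.143 to 0.172 over 4 pairs. In 1 of 4 pairs each library correlated best with its own number. So few pairs cannot show whether the numbers pair the samples. On recovered reads edgeR called 7459 genes and DESeq2 8336. With the replicate block 6266 genes passed, against 7423, and the same 4 members were higher and C1qtnf6 lower (limma adjusted p = 0.0454), while Mfrp, which did not pass otherwise in limma on all 8 libraries (adjusted p = 0.0545 to 0.104), passed with the block (0.0272). The causes of these shifts were not tested. Ccdc92 fell under the filter in 5 alternatives. C1qtnf3 and C1qtnf4 rested on 14 to 105 reads per library, and their spread within a group went beyond counting error (C1qtnf4 had a 95% exact Poisson interval of 13 to 32.1 reads in WT replicate 4 and of 59.9 to 95.1 in WT replicate 3).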
